A study of Drosophila melanogaster with 8 samples.

Results

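Dpn binding was examined at 9 genes of the EGFR pathway: the receptor gene Egfr, the ligand genes spi and vn, the rhomboid protease genes rho, ru and stet, and the inhibitor genes aos, kek1 and sty. A binding peak was assigned to a gene when it lay within 1 kb of it, in either of the 2 deposited peak lists. This gave 24 of 7756 peaks, 12 of the 4282 pan-NB peaks and 12 of the 3474 medulla NB peaks (in short, medulla peaks and medulla list). The peaks lay near 8 of the 9 genes, and kek1 had none.

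Both lists came from 3rd instar larval brains of Drosophila, with 2 replicates in each of 4 groups. In Targeted DamID a protein fused to the bacterial methylase Dam marks GATC sites close to where it meets DNA. For the pan-NB profile, a FlyORF-TaDa Dam-Dpn fusion or Dam alone was driven in neuroblasts (NBs, the neural stem cells) by wor-GAL4 with tub-GAL80ts, a temperature-sensitive repressor of GAL4. For the medulla profile, NanoDam was used, in which Dam carries a nanobody against GFP (TaDaM-traNLS-vhhGFP) and is thereby brought to a GFP-tagged protein. Flies with this construct, tub-GAL80ts and eyR16F10-GAL4 (ey-GAL4 in the labels) were crossed to Dpn-GFP, a tagged Dpn from a BAC under its own control, or to the w1118 background as control. The driver is also active in medulla neurons, so the driver by itself does not limit the list to NBs, and brains were pooled within each replicate. The Dam-Dpn fusion is a transgene expressed under GAL4, whereas Dpn-GFP is not. By the paper's account the wor-GAL4 profile is of all larval NBs, which takes in medulla NBs, so the lists are not of separate cell types. Technique, driver and form of Dpn changed together between the lists and cannot be told apart. The study's methods speak of peaks called in each replicate, but the lists used are named as peaks of averaged replicates, so no value below has a replicate error and no difference between the lists was tested. Peaks give no gene expression, and the labelled cell types could not be checked against marker genes. The depth behind a peak is unknown. Coordinates are as the lists give them and lie within the chromosome arms of Release 6, and the annotation used does not tell exons from introns.

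EGFR signalling in the fly uses a single receptor tyrosine kinase, Egfr, which activates Ras and the MAP kinase cascade. Its main ligand Spi is made as an inactive membrane precursor that rhomboid proteases cut, and active signalling switches on its own inhibitors, among them Aos, Kek1 and Sty. In the larval optic lobe the pathway is known for its part in the neuroepithelium, where it helps drive the proneural wave that turns neuroepithelial cells into medulla NBs. Dpn is a basic helix-loop-helix protein of the Hes family, whose members are mostly known as transcriptional repressors.

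A pan-NB peak was found at 7 of the 9 genes (77.8%), against 26.3% of 17684 genes in the annotation. A medulla peak was found at 7 of 9, against 22.2% of all genes, and peaks in both lists were found at 6 of 9 (66.7%), against 15.8%. ru had a pan-NB peak alone, like 10.5% of all genes, and stet a medulla peak alone, like 6.31% of all genes. No peak in either list was the commonest state over all genes, at 67.4%, and held here for kek1. Long genes collect more peaks, and 6 of these genes are 10 kb or longer. Of the 6, 5 had a pan-NB peak, 5 a medulla peak and 4 both, where protein-coding genes of at least 10 kb had 49.6%, 42.9% and 36.2%. Of the 3 shorter genes, spi and rho had peaks in both lists and kek1 had none, beside 22.9% (pan-NB), 19.8% (medulla NB) and 13.2% (both) of the shorter protein-coding genes. When the 1737 best-ranking peaks of each list were taken, the pan-NB count at the 9 genes fell to 2 (spi and aos) and the medulla count to 6. This was a harder cut for the pan-NB list, with 4282 peaks in all, than for the medulla list, with 3474. The genes were chosen with results of these data in view, and the counts are a description of 9 genes.

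**Figure D1:**
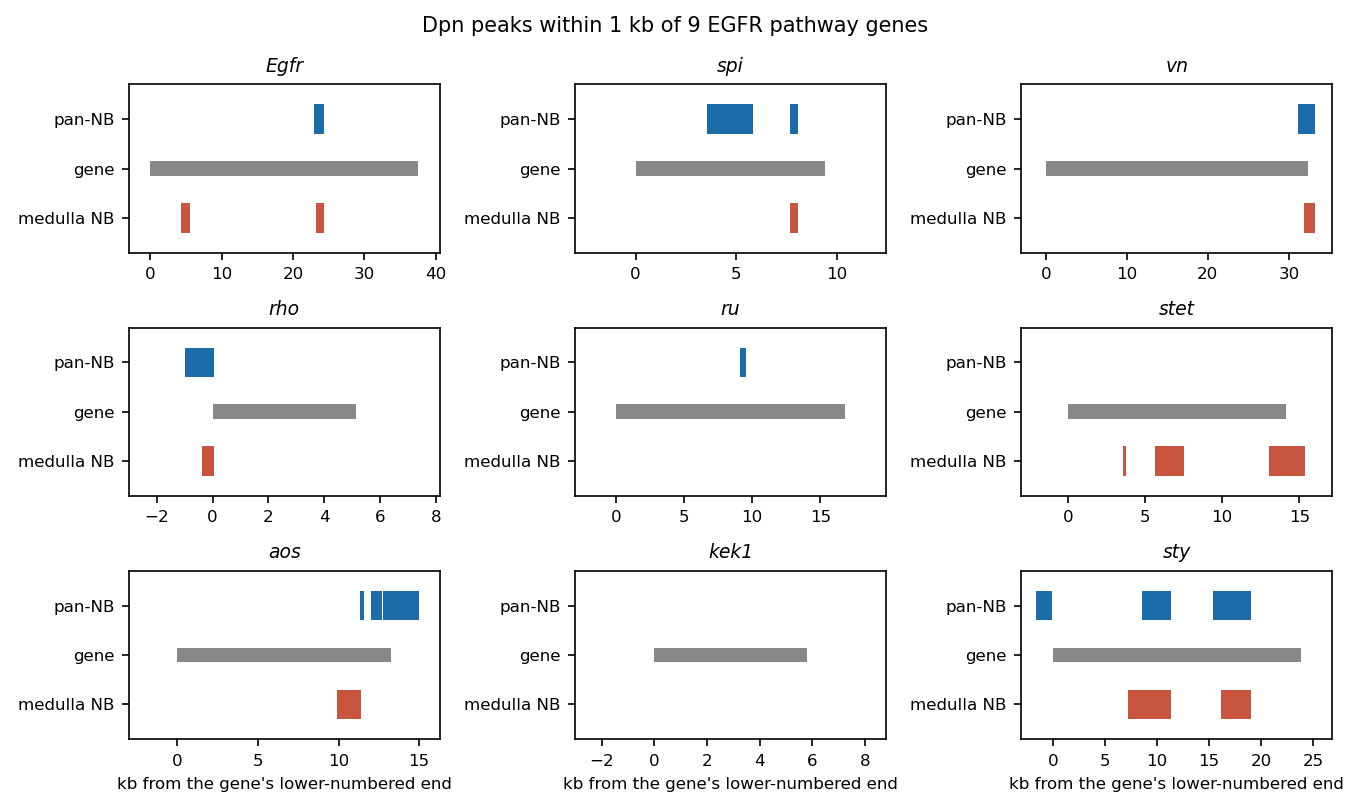
Dpn peaks at each of the 9 genes, drawn to scale, with position in kb from the end of the gene that has the lower coordinate (the strand is not given in the annotation used). Grey bars are the genes, blue bars pan-NB peaks and red bars medulla peaks within 1 kb. Egfr, spi, vn, rho, aos and sty have peaks in both rows, ru in the upper row alone, stet in the lower row alone and kek1 in neither.

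Egfr, a gene of 37558 bp on chromosome arm 2R, carried 1 pan-NB and 2 medulla peaks, all inside the gene, whose span also holds CG30286, CG30287, CG33226 and CG30283. The pan-NB peak at Egfr ran from 21545372 to 21546756 and had a score of 4.21, the value the authors' peak caller gave it, which was rank 1983 in its list. The medulla list had a peak there from 21545706 to 21546756 with a score of 6.61 and rank 824. Both peaks thus ended at the same base, and the whole medulla peak of 1051 bp lay within the pan-NB peak. The other medulla peak at Egfr, from 21526656 to 21527962, had no pan-NB counterpart and was among the weakest of its list, with a score of 1.38, rank 3364 of 3474 and a false discovery rate (FDR) of 5.07e-03. Within 1 kb of Egfr, peaks covered 1385 bp (pan-NB) and 2358 bp (medulla). With an FDR below 0.001 the weak peak dropped out and the medulla length became 1051 bp, so the surplus of the medulla list at Egfr rested on that peak.

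spi encodes the TGF-alpha-like ligand Spitz, and had the highest-ranking peaks of the 9 genes in both lists. The pan-NB list held 2 peaks inside spi on 2L, from 19571421 to 19573713 with a score of 5.88 and rank 849, and from 19575568 to 19575937 with a score of 5.74 and rank 954. The medulla list held 1 peak inside spi, with the same first and last base as the latter, 370 bp wide, with a score of 9.09 and rank 270 of 3474. It was the only peak at the 9 genes in the top 10% of either list. The 2293 bp peak of the pan-NB list in spi had no overlap in the medulla list, and spi therefore had 2663 bp covered in the pan-NB list against 370 bp in the medulla list. This difference in length at spi was the same with an FDR below 0.001, with the higher-scoring 50% of each list and with equal numbers of peaks (1737) taken from each.

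vn encodes Vein, a secreted neuregulin-like ligand that needs no rhomboid cleavage. In both lists vn had 1 peak, which crossed the end of the gene with the higher coordinate on 3L. The pan-NB peak at vn ran from 5844415 to 5846593 (score 3.57, rank 2528) and the medulla peak from 5845244 to 5846593 (score 2.53, rank 2628), with a common last base. The covered lengths were 2179 bp and 1350 bp. Both peaks at vn scored below the median of their lists, so with the higher-scoring 50% of each list vn had none. With an FDR below 0.001 the medulla peak at vn was lost as well.

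The 3 rhomboid genes lie close together on 3L, and their Dpn peaks differed from gene to gene. ru and rho are separated by 76373 bp, and rho and stet by 6493 bp. rho encodes Rhomboid, the protease that cuts Spi in most tissues. Each list had 1 peak at rho, across the end of the gene with the lower coordinate. It ran from 1462821 to 1463845 in the pan-NB list (score 4.27, rank 1937) and from 1463432 to 1463845 in the medulla list (score 4.57, rank 1473), again with a common last base. Only 35 bp of each peak lay inside rho itself, and both also lay within 1 kb of lncRNA:CR44842 and inside the span of Ptp61F, a tyrosine phosphatase gene of 132765 bp in which ru and rho are nested. The medulla peak at rho had an FDR of 2.71e-03 and was lost with an FDR below 0.001.

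ru encodes Roughoid, a rhomboid protease known from eye development. Its only peak was in the pan-NB list, from 1379753 to 1380174, with a width of 422 bp, a score of 3.96 and rank 2175 of 4282. The peak lay inside ru and covered the whole 72 bp of tRNA:Glu-CTC-3-1, 1 of 3 tRNA genes inside ru. It could belong to any of these genes. The nearest medulla peak to ru lay 9960 bp away, from 1360142 to 1360668 in Ptp61F. Over all 290 tRNA genes, 25.2% were overlapped by a pan-NB peak and 13.1% by a medulla peak, and the part of the tRNA gene in the peak at ru was not tested. These shares count direct overlap, so the shares of all genes within 1 kb are no background for them. Some tRNA genes lie in runs, where 1 peak can overlap several.

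stet encodes a further rhomboid protease, known from signalling between germline and soma. stet showed the reverse of ru, with 3 medulla peaks and no pan-NB peak. They ran from 1478999 to 1479203 (score 2.49, rank 2655), from 1481093 to 1482978 (score 4.39, rank 1554) and from 1488462 to 1490782 (score 3.42, rank 2041), the last across the end of the gene. Together they covered 4177 bp, or 25.9% of the gene with 1 kb on each side, and 7.09% of the protein-coding genes of any length with a medulla peak had more. stet is 14110 bp long, and protein-coding genes of at least 10 kb with a medulla peak had a median of 2275.5 bp. None of the 3 peaks overlapped a pan-NB peak, and the nearest pan-NB peak to stet was the one at rho, 11593 bp away. The first peak lay within 1 kb of robl62A, nested in stet, and the last within 1 kb of CG12084 and of 2 small RNA genes. All 3 had an FDR below 0.001 and 1 of them was in the higher-scoring 50% of the list.

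**Figure D2:**
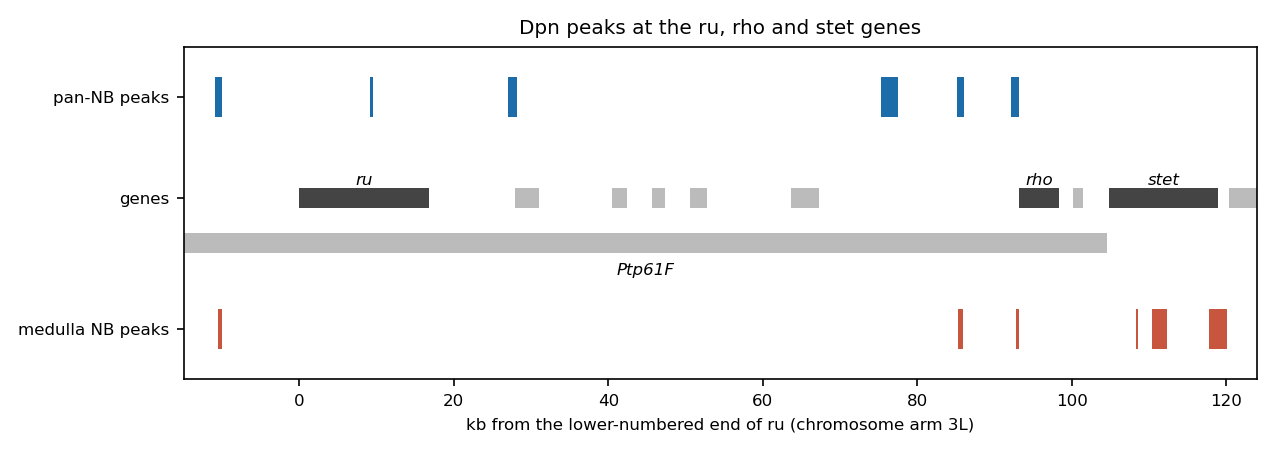
Dpn peaks along 3L from ru to stet, in kb from the lower-coordinate end of ru. Dark bars are ru, rho and stet, pale bars other protein-coding genes with Ptp61F in a row of its own, blue bars pan-NB peaks and red bars medulla peaks. Peaks of both lists meet at rho, the peak in ru has no medulla counterpart and the 3 peaks at stet have no pan-NB counterpart.

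Among the inhibitors, sty had the most covered sequence of the 9 genes, aos had neighbouring peaks with little overlap between the lists, and kek1 had none. sty encodes Sprouty, an intracellular inhibitor of receptor tyrosine kinase signalling. The pan-NB peaks at sty ran from 3399543 to 3401038 (score 4.44, rank 1777), from 3409759 to 3412449 (score 1.9, rank 4074) and from 3416504 to 3420174 (score 3.61, rank 2484). The medulla peaks at sty ran from 3408385 to 3409780 (score 2.4, rank 2715), from 3409836 to 3412449 (score 2.85, rank 2406) and from 3417245 to 3420174 (score 4.32, rank 1592). The 2 pan-NB peaks inside sty each had a common last base with a medulla peak. The other medulla peak inside sty, 1396 bp wide, shared 22 bp (1.58%) with a pan-NB peak. The remaining pan-NB peak lay 115 bp outside the gene, next to its lower-coordinate end, and had no medulla overlap. Peaks covered 7248 bp (pan-NB) and 6940 bp (medulla) at sty, and 5566 bp were covered in both. Of the protein-coding genes of any length with a peak, 2.88% (pan-NB) and 2.58% (medulla) had more. sty is 23783 bp long, and long genes have more covered length. The medians were 2319.5 bp and 2275.5 bp at bound protein-coding genes of at least 10 kb, and 1305 bp and 1284 bp at all bound genes. The 2 pan-NB peaks inside sty were wide (2691 bp and 3671 bp) but scored below the list median of 4.01. The best-scoring peak of each list at sty, at 4.44 (pan-NB) and 4.32 (medulla), was above the medians of 4.01 and 4.02. With 1737 peaks in each list sty had no pan-NB peak and 2930 bp in the medulla list, and counting the gene itself without the flanks the order turned, with 6362 bp (pan-NB) and 6940 bp (medulla).

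aos encodes Argos, a secreted protein that binds Spi and keeps it from the receptor. The pan-NB list had 3 peaks at aos, from 16481713 to 16481978 (score 4.71, rank 1571), from 16482428 to 16483103 (score 4.37, rank 1842) and from 16483154 to 16485401 (score 3.64, rank 2456). They were separated by 449 bp and 50 bp and had the same FDR of 2.65e-14. The medulla list had 1 peak at aos, from 16480267 to 16481795 with a score of 5.42 and rank 1160. It lay further into the gene and shared only 83 bp with the first pan-NB peak. The covered lengths at aos were 2439 bp and 1529 bp, with 3.4% of the pan-NB length also covered in the medulla list, the lowest share of the 6 genes with peaks in both. When at least 50% of a peak had to overlap, aos had no shared peak. Within the gene itself the order of the lengths turned, to 1439 bp and 1529 bp. aos lies inside the span of CG33158, to which all of these peaks could equally be assigned.

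kek1 encodes Kekkon 1, a transmembrane protein with leucine-rich repeats that binds Egfr and inhibits it. The nearest pan-NB peak to kek1 lay 93889 bp away, from 12720246 to 12723111 on 2L. The nearest medulla peak lay 9206 bp away, from 12831993 to 12833022. kek1 had no peak in any setting tried, up to a distance of 5 kb.

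**Figure D3:**
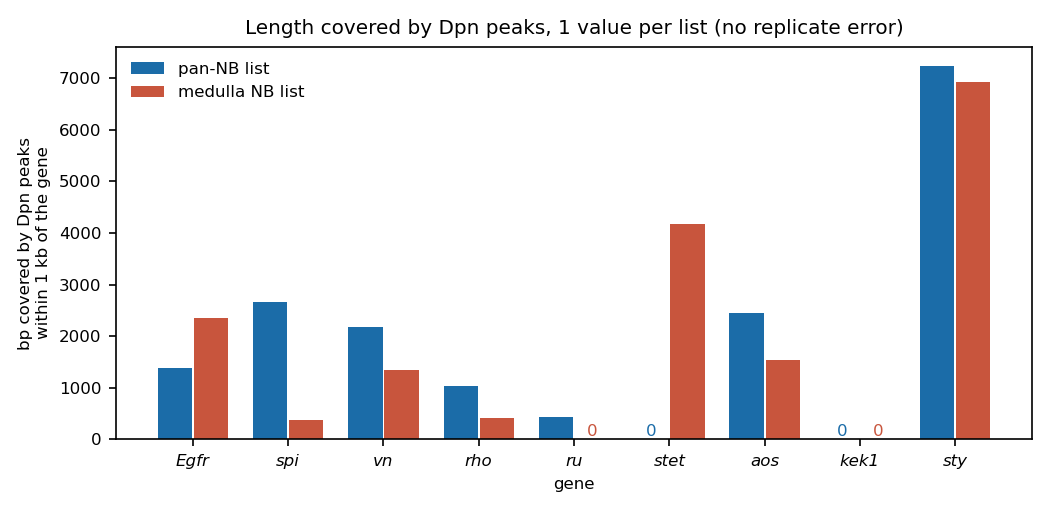
Length in bp covered by Dpn peaks within 1 kb of each gene, in the pan-NB list (blue) and the medulla list (red), 1 value per list without error bars since replicates were averaged. sty reaches 7248 bp and 6940 bp, spi 2663 bp and 370 bp, and stet 0 bp and 4177 bp.

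Over the 8 genes with a peak, the medulla share of the covered length (the medulla length as a part of the sum of both lists) ranged from 0% at ru to 100% at stet, with a median of 38.4%. Over the 5772 genes bound in at least 1 list the median was 46.3%. The median over those of the 9 genes with a peak moved with the setting. It was 23.9% with an FDR below 0.001 and 100% with 1737 peaks from each list, a harder cut for the pan-NB list. More length was covered in the medulla list at Egfr and stet, or 25.0% of the 8 genes, where 37.7% of all genes with a peak had more. At spi, vn, rho, ru, aos and sty the pan-NB list had more. Without the 1 kb flanks, 4 genes had more in the medulla list and 3 in the pan-NB list, while with equal numbers of peaks the counts were 5 and 1. spi, with a medulla share of 12.2%, had more in the pan-NB list in every setting run, and stet had peaks only in the medulla list in every setting run. At Egfr, rho, aos and sty the direction depended on the setting.

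The share of peaks common to both lists was close to that of the whole lists, a description with no test. Of the 12 pan-NB peaks, 7 (58.3%) shared 1 bp or more with the medulla list, against 55.1% of all pan-NB peaks. Of the 12 medulla peaks, 8 (66.7%) did so with the pan-NB list, against 69.6% of all medulla peaks. Among the 8 overlapping pairs at these genes, 6 had a first or last base in common, as 56.6% of all 2460 pairs did. Peaks were also of ordinary width and score. The median width was 1440.5 bp (pan-NB) and 1373 bp (medulla), beside 1408.5 bp and 1419 bp over whole lists. The median score was 4.24 beside 4.01 for pan-NB peaks and 3.87 beside 4.02 for medulla peaks. Scores of different lists have no common scale, and ranks are used only within a list.

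**Figure D4:**
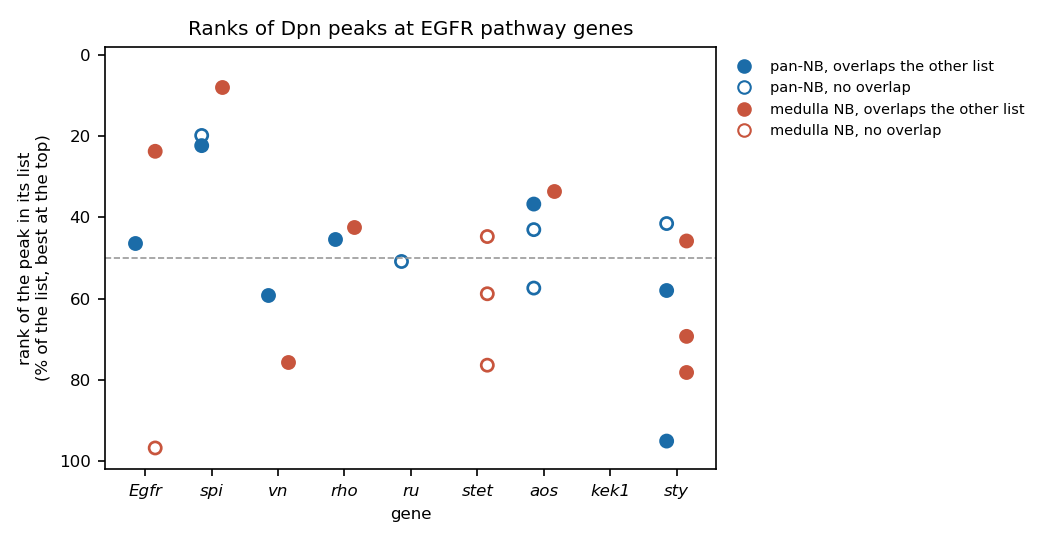
Rank of every peak at the 9 genes as a percentage of its list, best at the top, for the pan-NB list (blue) and the medulla list (red). Filled points overlap a peak of the other list and open points do not. The dashed line marks the middle of a list. The peak of the medulla list at spi is the highest, at 7.77%, and the weaker medulla peak at Egfr the lowest, at 96.8%.

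Most peaks lay inside genes, as is usual for genes of this length. At the 6 genes of 10 kb or more, 6 of 9 pan-NB peaks and 8 of 10 medulla peaks lay wholly inside the gene, and at all protein-coding genes of that length 74.9% and 74.5% did. Peaks across a gene end were found at vn and aos in the pan-NB list, at vn and stet in the medulla list, and at the shorter rho in both.

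Among 30 other genes of the pathway, 18 were bound within 1 kb in the pan-NB list, 16 (53.3%) in the medulla list and 13 (43.3%) in both, beside the 26.3%, 22.2% and 15.8% of all genes. Several of the 30 are long, such as kek5 (118734 bp) and pnt (55937 bp). For protein-coding genes of at least 10 kb the shares were 49.6%, 42.9% and 36.2%. The 30 genes were not split by length. Of the 2 other ligand genes, grk, the ligand of the oocyte, had a peak in the medulla list alone and Krn had none. Of the 4 ligand processing genes, S, which encodes the chaperone Star that carries Spi to the rhomboids, had 4 pan-NB and 5 medulla peaks, with 8367 bp and 8836 bp covered. All 4 pan-NB peaks at S were shared. rho-4 had a peak in the pan-NB list alone, and rho-5 and rho-6 had none.

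Of the 7 other inhibitors, pan-NB peaks were found at 4 and medulla peaks at 3. Gap1, a GTPase-activating protein gene for Ras (RasGAP1 in the annotation), had 2335 bp and 2228 bp covered, and its best pan-NB peak had rank 319. kek5, a relative of kek1, had 5492 bp and 7751 bp, and Socs36E, a suppressor of cytokine signalling gene, had 4861 bp and 6675 bp. Cbl had a peak in the pan-NB list alone, and kek2, PTP-ER and Mkp3 had none within 1 kb. The nearest pan-NB and medulla peaks lay 1798 bp and 1869 bp from Mkp3, 2843 bp and 2802 bp from PTP-ER, and 21362 bp and 63910 bp from kek2.

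Of the 11 transduction genes, pan-NB peaks were found at 8 and medulla peaks at 7. Raf, the MAP kinase kinase kinase gene of the cascade, had the most covered sequence of all these genes, with 6 pan-NB peaks over 13875 bp and 5 medulla peaks over 11517 bp. Its best medulla peak had rank 221. csw, which encodes the tyrosine phosphatase Corkscrew, had 1492 bp and 587 bp. drk and Shc were bound in the pan-NB list alone, Ras85D only in the medulla list, and Sos and ksr had none.

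Of the 6 nuclear factors, 4 had a peak in each list and 3 in both. pnt encodes the ETS activator Pointed, and aop the ETS repressor Yan that opposes it. pnt had 7 pan-NB peaks over 6326 bp and 4 medulla peaks over 3003 bp, and aop had 5 over 3542 bp and 2 over 1874 bp. At pnt 2 of the 7 pan-NB and 2 of the 4 medulla peaks were shared, and at aop 1 of the 5 and 1 of the 2. Over the 6 nuclear factors 4 of 15 pan-NB and 5 of 8 medulla peaks were shared, beside 55.1% and 69.6% of the whole lists. Most of these pan-NB peaks were at pnt and aop. The other classes had higher pan-NB shares, with 10 of 15 for transduction, 7 of 9 for inhibitors and 4 of 6 for ligand processing. Over all 30 genes 25 of 45 pan-NB and 25 of 37 medulla peaks were shared, and no difference between classes was tested. At aop 7.51% of the pan-NB length was also covered in the medulla list, where 82.5% was at S. Over those of the 30 genes with a pan-NB peak this ran from 0% (as at cic) to 100%, counting only the parts of peaks within 1 kb. cic was bound in the pan-NB list alone, and ebi only in the medulla list, where its peak met a pan-NB peak more than 1 kb from the gene. gro had none within 1 kb. The nearest peaks of both lists lay 1235 bp away, with rank 415 (pan-NB) and rank 20 (medulla), and were not assigned to gro.

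**Figure D5:**
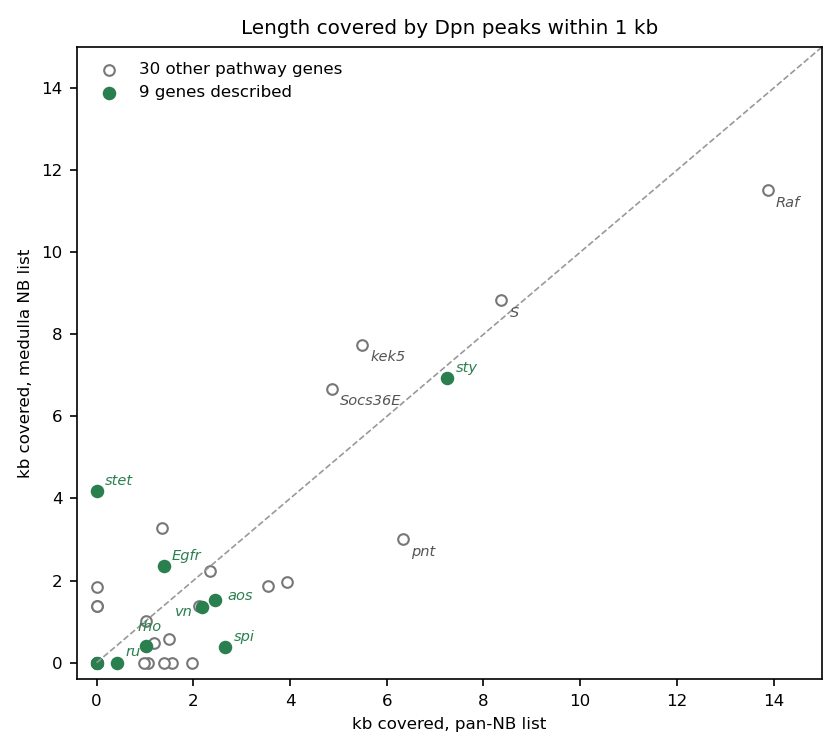
Length covered by Dpn peaks within 1 kb in the pan-NB list (horizontal axis, kb) and the medulla list (vertical axis, kb), for the 9 genes described (green) and 30 other pathway genes (open). The dashed line marks equal length. Raf lies farthest out with 13875 bp and 11517 bp, sty close to the line, stet on the vertical axis and pnt well below the line.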

How the data were processed

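Dpn binding was measured by DamID in 8 samples, 2 replicates in each of 4 groups. Per the study's methods, the authors aligned reads and made profiles with damidseq_pipeline (default settings), averaged them over replicates and used find_peaks with min-quant 0.8 and FDR below 0.01. For versions and the build, the sources used here state nothing. Each deposited list gives the position, FDR and the authors' score of a peak, on a scale that is not stated. Peaks on 6 chromosome arms were used, without the 7 on Y. Genes were taken from RefSeq, Release 6 (17684 genes). Peaks on 3R reach 32078821, past the end of that arm in the preceding release. As the table holds no strand, exons or sequence, motif counts that had been planned were not run.

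Covered length is the part of all peaks within 1 kb of a gene. Shared peaks overlap by at least 1 bp. No test was run, since each profile has 1 list. The functions for overlap and length were tested on simulated data. The 9 genes and the 30 others were chosen with earlier results of these data known. All 9 are named, and of the 30, the 8 with the best-ranking peaks and those without a peak. Other genes with peaks in 1 list, and the tRNA genes, were named after their values were seen. Alternatives were distances of 0 and 5 kb, an FDR below 0.001, the higher-scoring 50% of peaks, 1737 peaks from either list, 50% overlap and, added after seeing the data, joining of peaks closer than 500 bp. Values were computed with pandas 2.3.3, numpy 2.4.6 and scipy 1.17.1 under Python 3.11.15, and plots drawn with matplotlib 3.10.9.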

Additional observations from a re-analysis of the deposited data

How the results depend on the processing

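No paired analysis was possible because each list holds averaged replicates, and for the same reason no replicate could be left out. Counts and the median medulla share were taken as moved when they changed by over 1.5 times, and shares of peaks when they left the 95% Wilson interval of the reported value. The setting with as many peaks in both lists kept 1737 of 4282 pan-NB peaks and 1737 of 3474 medulla peaks. It was thus a harder cut for the pan-NB list, and for the medulla list it equalled the higher-scoring 50%. In it, 2 genes had a pan-NB peak, 2 had peaks in both lists, and 3 pan-NB and 6 medulla peaks were left. Of these medulla peaks 33.3% overlapped a pan-NB peak, and the median medulla share of covered length was 100%. With the higher-scoring 50% of each list, 7 pan-NB and 6 medulla peaks were left. With an FDR below 0.001 the median medulla share was 23.9%. In these settings fewer peaks enter by construction. The other 41 values of counts, shares of peaks and the median medulla share at the 9 genes stayed within those limits, at distances of 0 and 5 kb, with 50% overlap and with joined peaks among others. The limits are wide for 12 peaks, and the interval treats peaks of 1 gene as independent, so staying inside them does not show stability. Still inside them, an FDR below 0.001 left 8 of 12 medulla peaks and 4 genes, not 6, with peaks in both lists. There, 33.3% of the pan-NB peaks (4 of 12) overlapped a medulla peak, not 58.3%. The number of the 30 other genes with a peak was lowest with as many peaks in both lists, at 10 in each list, and highest at 5 kb, at 25 (pan-NB) and 23 (medulla).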

Other observations

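Ptp61F, the phosphatase gene around ru and rho, held peaks of its own. The pan-NB peak from 1359709 to 1360668 had rank 22 of 4282, higher than any peak at the 9 genes, and overlapped the medulla peak from 1360142 to 1360668, which had rank 427. Between ru and rho, a pan-NB peak from 1455790 to 1456729 (rank 2110) and a medulla peak from 1455928 to 1456603 (rank 1679) also overlapped, more than 1 kb from rho. A pan-NB peak from 1397682 to 1398818 (rank 3877) lay at a further run of tRNA:Glu-CTC genes and reached into the protein-coding gene CG32320. This peak had no medulla overlap, and neither had the pan-NB peak from 1445997 to 1448152 (rank 3963), which lay at no tRNA gene. Over all 290 tRNA genes, 73 were overlapped by a pan-NB peak, 38 by a medulla peak and 26 by both, with each gene of a run counted by itself.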
